A study of Mus musculus with 2 samples.

Results

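The BCL2 family decides at the outer membrane of the mitochondria whether a stressed cell lives or dies. Pro-survival members bind and hold back the effectors BAX and BAK, which otherwise form pores that release cytochrome c, and BH3-only members carry stress signals to both. Much of this control acts on the proteins, through cleavage, phosphorylation and turnover, which RNA levels do not show. In the thymus the family is best known for setting which thymocytes survive, and Mcl1 is also known to be needed to maintain the thymic epithelium.

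Here 10 genes of the family were followed, taken by symbol and not by their values: the pro-survival genes Bcl2, Bcl2l1 and Mcl1, the effectors Bax and Bak1, and the BH3-only genes Bcl2l11, Bbc3, Pmaip1, Bid and Bad. All 10 were found among the 25791 gene symbols of the deposited tables. RNA came from thymic epithelial cells of mouse fetuses at 15 days post coitum, sorted for EpCAM and against CD45 and PDGFRa. The library titled B6J came from strain C57BL/6, and the library titled humanCD3eTg, named for a human CD3E transgene, came from mice labelled C57BL/6J x CBA/J. The labels do not state how many fetuses were pooled, the transgene's promoter or its copy number. The treatment labels put thymocytes in the humanCD3eTg mice and none in the B6J mice, which is the reverse of what is generally known of mice with many copies of human CD3E. The libraries are therefore called by their titles, and a gene called higher or lower stood so in humanCD3eTg.

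With 1 library per group no test was possible, and transgene, strain, sort and library cannot be told apart. The values are FPKM, fragments corrected for the length of the transcript and the size of the library, which can be compared between genes of 1 library. The log2 ratios below were taken on FPKM + 1, which understates differences of low genes, and the 13493 genes averaging at least 1 FPKM served as the background. Their median log2 ratio was -0.05, with quartiles of -0.30 and 0.18. About 20100000 fragments were estimated to stand behind B6J and 15700000 behind humanCD3eTg. The 95% counting intervals given below rest on this estimate and on each gene's shortest transcript, and a longer transcript would narrow them. They cover counting error only, not the choice of scaling or the spread between mice, sorts or libraries.

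The sorted cells carried epithelial RNA in both libraries, with other cell types at unequal levels. Krt18 and Krt8, keratin genes of simple and thymic epithelium, stood at 2656 and 2183 FPKM in B6J and at 2951 and 2103 in humanCD3eTg, and Prss16, a protease gene of cortical epithelium, at 1409 and 992.4. Of the 12 thymic epithelial markers 9 were lower (median log2 ratio -0.44), among them Foxn1, the master regulator of this epithelium, at 91.1 and 43.7 FPKM (-1.04) and the keratin gene Krt14 at 22.9 and 9.05 (-1.25), whereas Krt5 was higher at 280.2 and 955.5 (1.77). All 11 thymocyte markers used were lower in humanCD3eTg, but some, such as Cd3g, reached the filter through B6J alone. Of the 20 measured, with no filter, 18 were lower and 1 higher. The 20 summed to 174.0 FPKM in B6J and 9.20 in humanCD3eTg. The 12 pan-leukocyte markers summed to 102.6 and 13.8 FPKM, the 12 endothelial markers to 67.8 and 19.9, and the 9 erythroid markers analysed, mostly haemoglobin, to 2612 and 1586. Of these 9 erythroid markers 6 were lower, none by 2-fold, and 3 were higher, 1 of the 3 by at least 2-fold. The 12 pigment cell and neural crest markers summed to 16.2 FPKM in B6J and to 187.1 in humanCD3eTg. The 10 mesenchyme markers summed to 231.4 FPKM in B6J and 264.7 in humanCD3eTg, and of the 9 used 6 were lower and 3 higher, none by 2-fold. Beside these marker counts, 55.4% of all genes used were lower (4.47% by 2-fold) and 44.6% higher (2.1% by 2-fold). Cd3d and Cd3g were listed at 0 in humanCD3eTg, and Mlana, a melanosome gene, in B6J. In such bulk RNA, fewer cells of a type and less RNA per cell cannot be told apart.

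None of the 10 BCL2 family members differed by 2-fold between the libraries in either direction. Of all genes used, 2.1% were at least 2-fold higher in humanCD3eTg and 4.47% at least 2-fold lower, so a count of 0 among 10 lies near the background. Bid and Pmaip1 were the 2 members past 1.5-fold, both lower, and no member was 1.5-fold higher. With a pseudocount of 5 FPKM neither passed this limit (log2 ratios of -0.38 for Bid and -0.42 for Pmaip1), and after quantile normalization Pmaip1, at -0.58, fell just short of it. Among all genes used, 10.9% were that much lower and 5.95% that much higher. In all, 7 members stood lower and 3 higher, beside 55.4% and 44.6% of all genes used, and the members' median log2 ratio was -0.17 (-0.069 after quantile normalization, which moved the median of all genes by 0.07). Between the quartiles of the background lay 5 members, while 4 lay below and 1, Bak1, above.

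**Figure D1:**
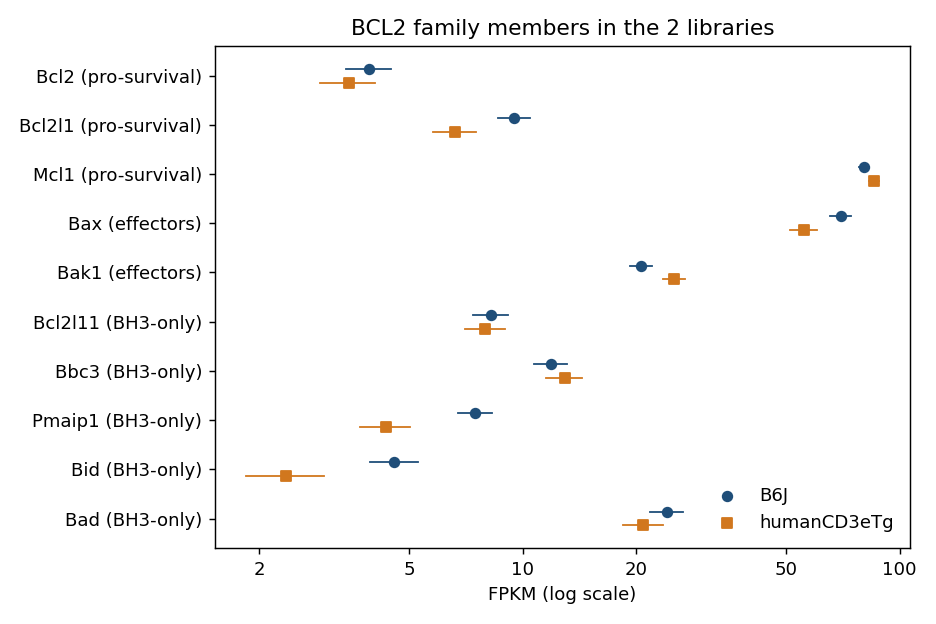
FPKM (log axis) of each member in B6J (circles) and humanCD3eTg (squares), 1 library each, with bars for the estimated 95% counting interval. Mcl1 and Bax stand highest in both libraries, between 55.6 and 85.4 FPKM, and Bid and Bcl2 lowest, between 2.36 and 4.56 FPKM.

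The members spanned a wide range of levels in a similar order in both libraries. In B6J the order by FPKM ran from Mcl1 through Bax, Bad, Bak1, Bbc3, Bcl2l1, Bcl2l11, Pmaip1 and Bid to Bcl2, the highest standing 20.5 times above the lowest. In humanCD3eTg the same order held apart from 3 exchanges of neighbours: Bak1 stood above Bad, Bcl2l11 above Bcl2l1, and Bcl2 above Bid. With the shortest transcripts the counting intervals of each of these pairs overlapped in both libraries. Those of Bak1 and Bad only just did. In B6J Bak1 reached up to 21.96 FPKM and Bad down to 21.70, and in humanCD3eTg Bak1 reached down to 23.58 and Bad up to 23.62. Longer transcripts, which Bad, Bcl2, Bcl2l1 and Bcl2l11 have, would give narrower intervals. These were not computed and may not overlap. Those of Mcl1 and Bax, the first and second in order, did not overlap in either library. Of the other neighbours, Bcl2l11 and Pmaip1 overlapped in B6J, and Pmaip1 and Bcl2 in humanCD3eTg. Mcl1 lay above 91.0% of the genes used in B6J and 91.6% in humanCD3eTg, whereas Bcl2 lay above 24.2% in both.

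Among the pro-survival genes, Mcl1 held most of the RNA, at close levels in both libraries. Mcl1, which encodes a short-lived protein that cells must keep making, measured 80.2 FPKM in B6J against 85.4 in humanCD3eTg (log2 ratio 0.09). The FPKM ratio of 1.06 had a counting interval of 1.02 to 1.11. This was the smallest interval of the 10, since about 5184 and 4287 fragments stood behind it.

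Bcl2l1, which encodes BCL-XL, measured 9.47 FPKM in B6J against 6.61 in humanCD3eTg (log2 ratio -0.46, FPKM ratio 0.698, counting interval 0.590 to 0.821). It was the lowest pro-survival ratio, and 15.5% of the genes used had a lower one. BCL-XL is also known to keep erythroid precursors alive. In the same library thymocyte, leukocyte and endothelial markers were lower, while of 9 erythroid markers 6 were lower and 3 higher. The part of these cell types in this value was not tested. Bcl2, the founding member of the family, stood at 3.92 FPKM and 3.45 FPKM (log2 ratio -0.14). Its counting interval with the shortest transcript, 0.708 to 1.10, included equality. Thymocytes and pigment cells are known to express Bcl2 too, and the markers of the former were lower and of the latter higher in humanCD3eTg; their part in this value was not tested. Gene values do not separate the long and short forms of BCL-X or MCL1, which act in opposite ways. On a later genome build than the authors' the span of Bcl2l1 also overlaps that of Cox4i2 (9.55 and 10.7 FPKM), and use of strand is not given in the sources used here.

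The effectors differed in opposite directions. Bax measured 69.8 FPKM in B6J against 55.6 in humanCD3eTg (log2 ratio -0.32, FPKM ratio 0.796, counting interval 0.716 to 0.885). Bak1 stood at 20.6 and 25.2 FPKM (log2 ratio 0.28, FPKM ratio 1.23, counting interval 1.12 to 1.35). BAX is mostly cytosolic until activated and BAK sits in the mitochondrial membrane, and either is known to be enough for pore formation in many cells. Within a library, where a common scaling factor cancels, Bax stood 3.39 times as high as Bak1 in B6J and 2.20 times as high in humanCD3eTg.

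The BH3-only genes held the largest differences of the set, both lower in humanCD3eTg. Bid, which encodes the protein that caspase 8 cleaves to pass death receptor signals to mitochondria, measured 4.56 FPKM in B6J against 2.36 in humanCD3eTg (log2 ratio -0.73). Its FPKM ratio was 0.517 with a counting interval of 0.388 to 0.681, from about 182 and 73 fragments. Pmaip1, which encodes NOXA, a p53-induced protein that mainly binds MCL1, stood at 7.48 and 4.32 FPKM (log2 ratio -0.67, FPKM ratio 0.578, counting interval 0.479 to 0.693). Of the genes used, 7.49% had a lower ratio than Bid and 8.60% a lower one than Pmaip1. Thymocyte, leukocyte and endothelial markers were lower in the same library, and their part in these differences was not tested.

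The remaining BH3-only genes differed by less. Bbc3, which encodes PUMA, a p53 target that binds all main pro-survival proteins, stood at 11.9 and 12.9 FPKM (log2 ratio 0.11, counting interval of the FPKM ratio 0.936 to 1.27). Bcl2l11, which encodes BIM, the BH3-only protein best known for thymocyte deletion, stood at 8.25 and 7.94 FPKM (log2 ratio -0.05, counting interval 0.818 to 1.14). Bad, whose protein growth factor signalling inactivates by phosphorylation, stood at 24.1 and 20.9 FPKM (log2 ratio -0.20, counting interval 0.738 to 1.02). All 3 intervals, taken with each gene's shortest transcript, included equality. For Bad a transcript of 990 bases was used, and the narrower interval with its transcript of 1452 bases was not computed. The span of Bad overlaps that of Gpr137 (17.7 and 15.0 FPKM) on the later build. Bbc3 and Pmaip1, which share regulation by p53, stood in a ratio of 1.59 in B6J and 2.99 in humanCD3eTg.

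**Figure D2:**
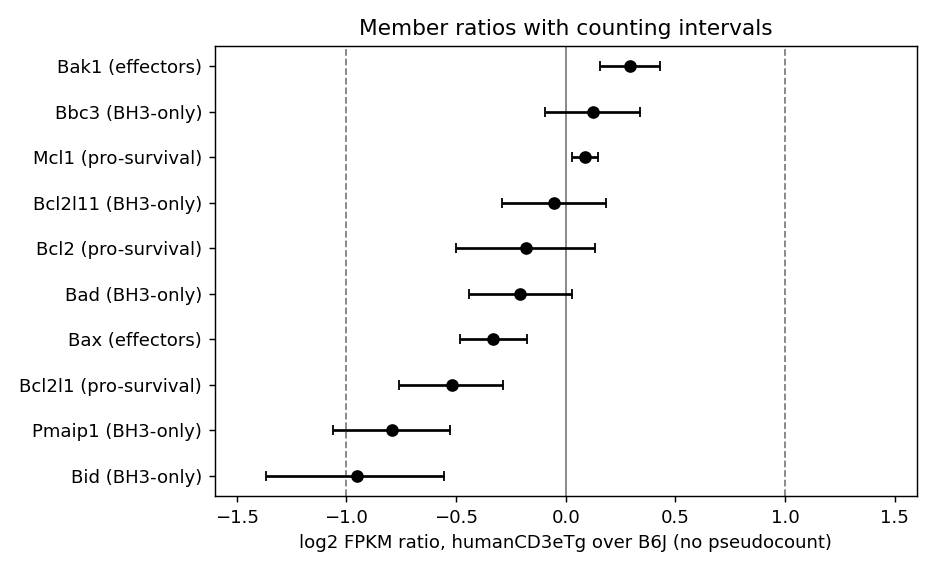
Log2 ratio of FPKM, humanCD3eTg over B6J with no pseudocount, for each member (points) with the estimated 95% counting interval (bars); the solid line marks equality and dashed lines 2-fold. With the shortest transcripts and the deposited scaling, the intervals of Bid, Pmaip1, Bcl2l1 and Bax lie below equality. Those of Mcl1 and Bak1 lie above it, while the other 4 include it.

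Summed by role, the pro-survival genes came to 93.6 FPKM in B6J and 95.4 in humanCD3eTg. The effectors came to 90.4 and 80.8 FPKM, and the BH3-only genes to 56.2 and 48.4 FPKM. The ratio of pro-survival to effector RNA was thus 1.04 in B6J and 1.18 in humanCD3eTg, and that of pro-survival to BH3-only RNA 1.67 and 1.97. With Bok, described below, among the effectors the former was 0.674 and 0.817. Mcl1 made up 85.7% and 89.5% of the pro-survival sum, Bax 77.2% and 68.8% of the effector sum, and Bad 42.8% and 43.1% of the BH3-only sum. For the members without Mcl1 the order of the libraries turned: the sum of Bcl2 and Bcl2l1 over the effectors was 0.148 in B6J and 0.124 in humanCD3eTg, and over the BH3-only genes 0.238 and 0.208. The pro-survival gene Bcl2l2, at 9.18 FPKM in B6J and 9.76 in humanCD3eTg, was in none of these sums. Ratios with it were not computed, so the turn holds for the listed members only. Mcl1 stood 8.47 times as high as Bcl2l1 in B6J and 12.9 times in humanCD3eTg. Against Pmaip1, whose protein binds MCL1, it stood 10.7 and 19.7 times as high.

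**Figure D3:**
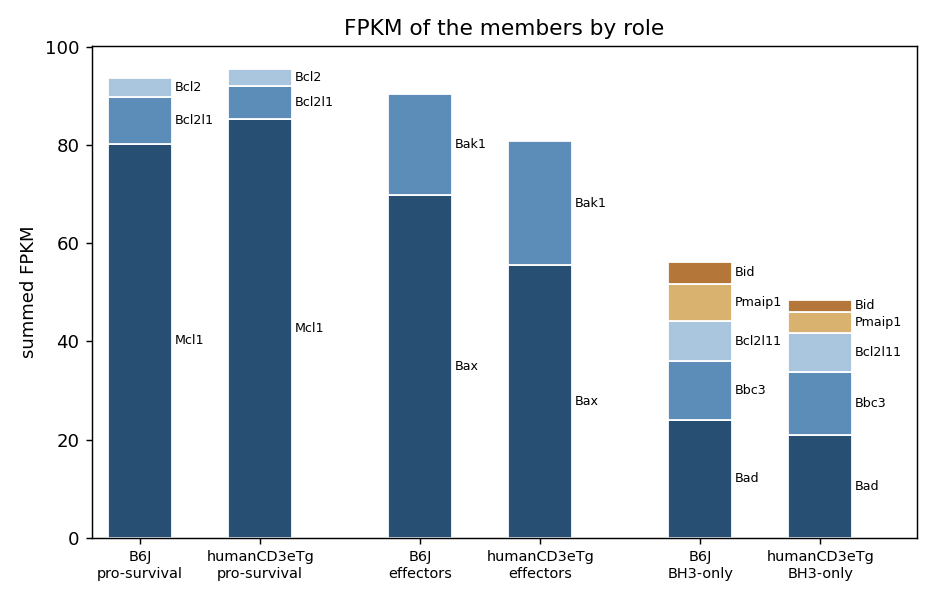
Summed FPKM of the members by role in each library, stacked by gene from the highest at the bottom, 1 library per bar with no error. The pro-survival bars reach 93.6 and 95.4 FPKM and consist mostly of Mcl1, while the effector and BH3-only bars are lower in humanCD3eTg.

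Of the 16 other family genes measured, 11 reached a mean of 1 FPKM, and 10 of these were lower in humanCD3eTg, with a median log2 ratio of -0.30. Without the Bcl2a1 copies described next, 7 of 8 were lower, with a median of -0.13, beside 55.4% lower and a median of -0.05 over all genes used. The 3 past 2-fold were copies of Bcl2a1, which encodes the pro-survival protein A1 of blood cells. Bcl2a1a stood at 2.48 and 0.0710 FPKM, Bcl2a1b at 2.26 and 0.153 FPKM, and Bcl2a1d at 2.98 and 0.145 FPKM. The humanCD3eTg values rest on about 1 fragment each, and the copies are near-identical and may share reads, so their single values are uncertain. These 3 reached the filter through B6J alone. Bcl2a1c, at 0.208 FPKM in B6J, was listed at 0 in the other library. The pan-leukocyte markers, also lower in humanCD3eTg, included Coro1a at 25.2 and 2.22 FPKM, Ptprcap at 15.4 and 0.884 FPKM and Lcp1 at 13.7 and 2.52 FPKM; their part in the Bcl2a1 values was not tested.

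The rest of the family reached levels above and below those of the members. Bok, an effector-like gene, stood at 48.4 and 36.0 FPKM (log2 ratio -0.42), above Bak1 in both libraries. Bcl2l2, which encodes the pro-survival BCL-W, stood at 9.18 and 9.76 FPKM (0.08), close to Bcl2l1 in B6J. Of the further BH3-only genes, Bmf stood at 7.42 and 5.42 FPKM (-0.39), Bik at 0.946 and 0.341 FPKM (about 14 and 4 fragments), and Hrk at 0.188 and 0.147 FPKM. Bnip3l and Bnip3, mitophagy receptors induced by low oxygen, had 136.0 and 38.3 FPKM in B6J and 124.4 and 35.0 in humanCD3eTg (log2 ratio -0.13 for both). The mitophagy receptor gene Bcl2l13 stood at 13.2 and 11.9 FPKM (-0.14) and Bcl2l12 at 11.6 in both libraries (-0.01). Bcl2l14 stood at 1.93 and 1.38 FPKM (-0.30) and Bcl2l15 at 0.818 and 0.945 FPKM, and Bcl2l10 was listed at 0 in both. Outside the Bcl2a1 copies no other family gene reached 2-fold on FPKM + 1.

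Among the mitochondrial factors and caspases analysed here, no gene reached 2-fold. Of 13 genes of mitochondrial apoptosis factors 8 were lower and 5 higher, none by 2-fold, with a median log2 ratio of -0.06. Over all genes used 55.4% were lower and 44.6% higher, with a median of -0.05. Cycs, which encodes cytochrome c, was among the 5 higher genes at 18.7 and 23.9 FPKM (0.33), as were the channel genes Vdac1 (0.10), Vdac2 (0.14) and Vdac3 (0.63). The 8 lower genes included Diablo (-0.21), Htra2 (-0.09), Aifm1 (-0.11) and Endog (-0.28). Of 7 genes of the apoptosome and caspases analysed here 6 were lower, none by 2-fold, with a median of -0.07, beside 55.4% of all genes used lower. Casp8, whose product cleaves BID, stood at 5.86 and 4.98 FPKM (-0.20).

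Of the 5 inhibitors of apoptosis used, 4 were lower, 1 of them past 2-fold, and their median of -0.04 lay at that of all genes used (-0.05). Of all genes used, 55.4% were lower and 4.47% lower by 2-fold. The inhibitor past 2-fold was Birc3, which encodes cIAP2, a ubiquitin ligase of TNF receptor signalling, at 36.7 and 17.3 FPKM (-1.04). Of the 9 death receptor pathway genes used 8 were lower, none by 2-fold, with a median of -0.36 (-0.21 with a pseudocount of 5), beside 55.4% of all genes used lower. Log2 ratios in this list ran from -0.57 to 0.02, and Casp8 was counted both here and among the caspases. Fas, a death receptor gene, stood at 12.8 and 8.71 FPKM (-0.51). Bid, the link from this pathway to mitochondria, had a log2 ratio of -0.73. The blood and endothelial markers given above were lower in the same library, and their part in these lists was not tested.

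Most p53 pathway genes stood higher in humanCD3eTg, and the members include known targets of p53. Of 18 pathway genes used 12 were higher in humanCD3eTg, none by 2-fold, with a median log2 ratio of 0.26, beside 44.6% higher and a median of -0.05 over all genes used. Trp53 itself stood at 105.3 and 95.3 FPKM (-0.14), Mdm2, which encodes the ligase that degrades p53, at 63.2 and 75.1 FPKM (0.24), and Cdkn1a, the cell cycle inhibitor p21, at 77.4 and 131.4 FPKM (0.76). Among the members, the p53 targets Bbc3, Bax and Pmaip1 had log2 ratios of 0.11, -0.32 and -0.67. Pigment cell and neural crest markers were higher in the same library as this list, and their part was not tested.

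Among 15 transcriptional regulators of the family that were used, 11 were lower (median -0.17), 1 past 2-fold, beside 55.4% of all genes used lower and 4.47% lower by 2-fold. Stat5a, a transcription factor gene known to induce Bcl2l1 after cytokine signals, stood at 6.61 and 2.37 FPKM (-1.17). Its close relative Stat5b stood at 6.31 and 2.96 FPKM (-0.89), and Relb, a subunit gene of NF-kB, at 60.8 and 32.0 FPKM (-0.91). The other NF-kB and STAT genes of this list lay nearer to equality, with log2 ratios of 0.01 for Rela, -0.24 for Nfkb1 and -0.01 for Stat3. Thymocyte, leukocyte and endothelial markers were lower in the same library, and their part in these values was not tested. Ddit3, which encodes the stress factor CHOP, stood at 18.4 and 32.1 FPKM (0.77), while Atf4, of the same list, had a log2 ratio of 0.13. Of 14 genes whose products modify or bind the family's proteins 8 were higher and 6 lower, none by 2-fold (median 0.03). Over all genes used 44.6% were higher and 55.4% lower, with a median of -0.05.

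**Figure D4:**
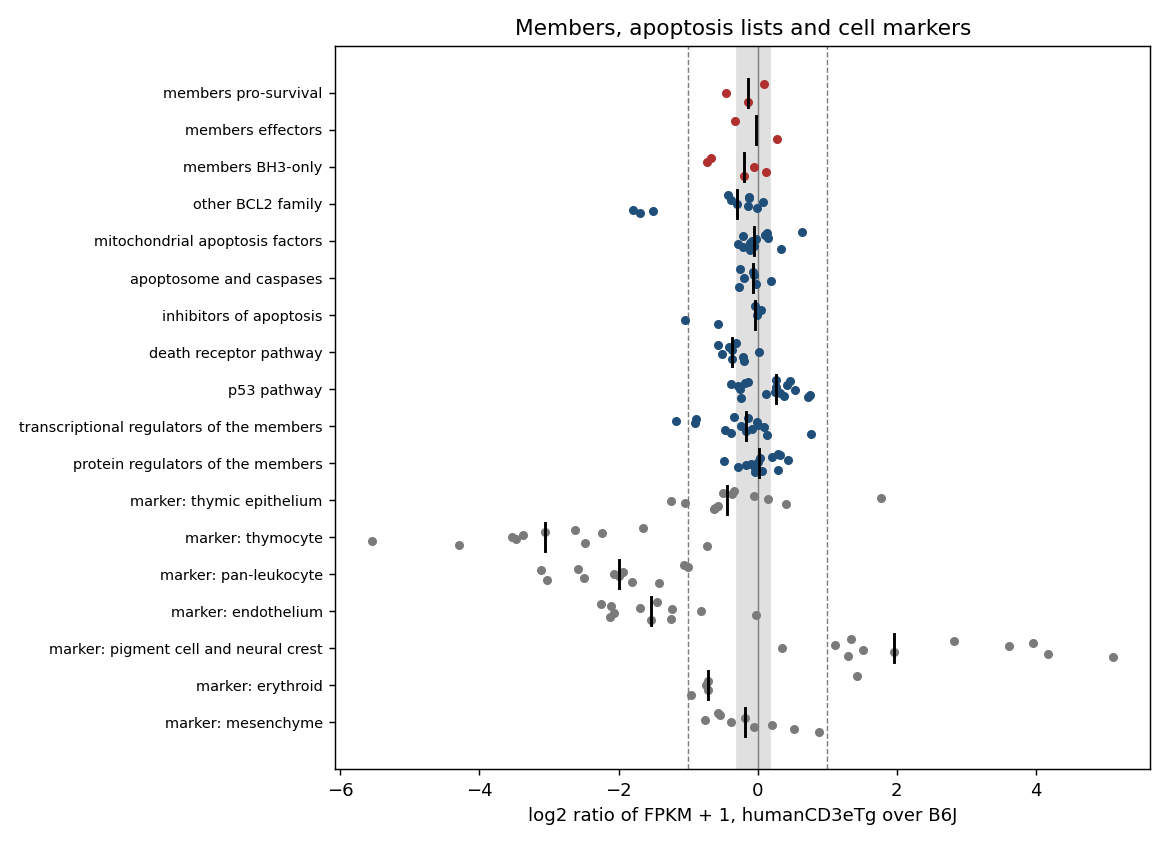
Log2 ratio of FPKM + 1, humanCD3eTg over B6J, for each gene used of the members (red), the apoptosis lists (blue) and the cell type markers (grey); black bars are list medians, the grey band the quartiles of all genes used and dashed lines 2-fold. All members lie between -0.73 and 0.28, while thymocyte, leukocyte and endothelial markers reach far below and pigment cell and neural crest markers far above.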

How the data were processed

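Libraries were made from total RNA of the sorted cells by an Illumina TruSeq method, as the labels' protocols state. The authors deposited 1 FPKM value per gene symbol and library. Per the submitters' processing notes, which give no roles, the tools were Cufflinks 2.1.1, Bowtie2 2.1.0 and TopHat2 2.0.8, and the build was mm9. How strand was used, which annotation served and what was filtered is not given in the sources used here. Log2 ratios used a pseudocount of 1 FPKM, genes averaging at least 1 FPKM and a limit of 2-fold. Depth was estimated from the steps of low values of single-transcript genes, with GENCODE lengths of a later build less 210 bases. The step chosen was the one that made most values whole: 54.9% of 581 genes in B6J and 56.5% of 393 in humanCD3eTg came within 0.1 of a whole number, beside 20% for a random step. Since the best of many steps and length corrections was taken, 20% is not the level for the chosen step, which was not computed. The estimate is therefore approximate, and no count test was run. Counting intervals (exact Poisson for levels, Clopper-Pearson for ratios) took each gene's shortest transcript matched to RefSeq. Intervals with longer transcripts, such as 7191 against 2841 bases for Bcl2, would be narrower and were not computed. The code for log2 ratios and the 2-fold limit was run on data simulated from genes of at least 5 FPKM (Python 3.11.15, pandas 2.3.3, SciPy 1.17.1). The planted differences lay well past or well inside the limit. The run therefore checked the arithmetic only, not lower genes such as Bcl2 and Bid or the spread between libraries. The depth estimate and the counting intervals were not tested in this way.

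The members and lists were chosen with earlier results of these data known. Named genes are all members and other family genes, those of each pathway list past 2-fold (at most 4), Trp53, Mdm2 and Cdkn1a, and of marker lists up to 3 of the highest mean. Casp8, Cycs, Vdac1, Vdac2, Vdac3, Diablo, Htra2, Aifm1, Endog, Fas, Stat5b, Relb, Rela, Nfkb1, Stat3, Ddit3, Atf4, Cd3d, Mlana, Foxn1, Krt5, Krt14, Cox4i2 and Gpr137 were added after their values were seen. No gene was ranked by likeness to a member, since with 2 libraries a pattern is 1 ratio. Alternatives were other pseudocounts, filters, scalings and limits. Some genes of the pathway lists are not reported here.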

Additional observations from a re-analysis of the deposited data

How the results depend on the processing

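No member reached 2-fold in either direction with pseudocounts of 0.1 or 5, without a filter, among genes averaging at least 5 FPKM, after median centring, quantile normalization or rescaling, or, chosen after seeing the data, without a pseudocount; with a limit of 1.5-fold 2 were lower. All members kept their direction under the scalings and pseudocounts except Bcl2l11, which was 0.03 after quantile normalization, where Bcl2 was at -0.00095. The members' median was -0.069 after quantile normalization. Leaving out Mcl1 gave ratios of 0.148 and 0.124 to effectors and of 0.238 and 0.208 to BH3-only genes for the sum of Bcl2 and Bcl2l1, and sums with Bcl2l2 were not computed. Adding Bok to the effectors, also chosen after seeing the data, gave 0.674 in B6J and 0.817 in humanCD3eTg. The median of the other family genes was -0.43 and -0.12 with pseudocounts of 0.1 and 5 -0.17 after quantile normalization and, chosen after seeing the data, -0.13 without the Bcl2a1 copies; that of the death receptor genes was -0.21 with a pseudocount of 5 and -0.25 after quantile normalization. The other 43 of 48 alternative list medians lay within 0.1 of those given. Genes past 2-fold numbered 284 higher and 603 lower, 473 and 903 with a pseudocount of 0.1, 106 and 223 with 5, 143 and 272 among genes averaging at least 5 FPKM, 368 and 515 after quantile normalization and 322 and 559 after centring. The causes were not tested. No paired analysis was possible because each group has 1 library.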
